A study of Mus musculus with 16 samples.

Results

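The genes described here encode subunits of the oxidative phosphorylation machinery that are made from nuclear DNA. They were chosen by symbol from the count table, taking the Nduf, Sdh, Uqcr, Cox and Atp5 subunit series and leaving out the Ndufaf assembly factors and Atp5sl, which gave 79 of 24062 genes. Of these, 37 belong to complex I, 4 to complex II, 8 to complex III, 16 to complex IV and 14 to complex V. The rule uses the symbols only, although the set was proposed with earlier results of these data known.

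RNA-seq was performed on whole brain, cerebellum included, of 16 female C57BL/6J mice, singly housed and aged PND 45, with 1 library per mouse and 4 mice in each group. WW mice drank tap water throughout. In NW, the only fluid for 22 h of each day was tap water with 200 µg/ml nicotine, for 6 days and then on through the 4 days with drinking sessions. Water-Ethanol mice, shown by the initials of the label in the figures, had water in place of nicotine and 20% v/v ethanol in sessions of 2 h, the last of which lasted 4 h and ended at dissection, and NE mice had both nicotine and ethanol. Nicotine bottles were off the cage during the sessions, and all groups had the same change of bottles. No dose was given: the amount each mouse took in was what it drank. The sequenced mice were a randomly chosen subset of the study's animals.

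Oxidative phosphorylation takes electrons from NADH at complex I and from succinate at complex II, passes them through complex III and cytochrome c to oxygen at complex IV, and uses the proton gradient built on the way to make ATP at complex V, the ATP synthase. Brain tissue relies heavily on it, because neurons spend much of their ATP on ion pumps. Most subunits are nuclear genes whose promoters are known to be shared targets of NRF1, of the ETS factor GABP and of YY1, with the coactivator encoded by Ppargc1a acting on several of them. Subunits encoded in mitochondrial DNA were not analysed here.

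Promoter windows were available in RefSeq (GRCm38.p6, 250 bases before to 50 bases after each gene's start) for 65 of the 79 genes. The letters GCATGCGC, the core of an NRF1 site, were present on either strand in 10 of these 65 genes (15.4%) and in 3.05% of all 27025 genes with a window. The ETS core CCGGAAG was present in 16 (24.6%) against 9.93%, and the YY1 core AAGATGGC in 9 (13.8%) against 3.19%. At least 1 of these motifs was present in 29 of the 65 genes (44.6%) and in 14.9% of all genes. The YY1 letters lay at or after the start in 8 of the 9 genes, whereas the NRF1 letters lay before it in 8 of 10 and the ETS letters in 12 of 16. These matches are descriptions of sequence and are no evidence of binding in these brains. The 4 stretches printed here come from before the gene's start, so motif letters at or after it are not shown. Over the whole window Ndufa9 held the YY1 letters, and Sdhb and Uqcr11 each held both NRF1 and ETS letters. Ndufa9 is shown because it is the only member that passed the adjusted test in any comparison, and Sdhb, Uqcr11 and Cox6a1 because they had the smallest p-value of complexes II, III and IV in the nicotine comparison. Capitals mark the motif letters on either strand, and the NRF1 letters of Cox6a1 are a palindrome in which both strands match with an overlap.
Ndufa9, chr6:126849145-126849264, minus strand, no motif before the start: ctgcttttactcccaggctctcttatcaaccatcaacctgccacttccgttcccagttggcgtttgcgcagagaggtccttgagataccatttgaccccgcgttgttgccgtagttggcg
Sdhb, chr4:140961172-140961269, plus strand, NRF1 letters: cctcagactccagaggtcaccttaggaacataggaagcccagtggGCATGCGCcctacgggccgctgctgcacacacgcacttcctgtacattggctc
Uqcr11, chr10:80406836-80406932, minus strand, ETS letters: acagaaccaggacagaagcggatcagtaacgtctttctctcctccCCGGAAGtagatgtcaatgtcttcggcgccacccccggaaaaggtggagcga
Cox6a1, chr5:115348959-115349165, minus strand, NRF1 and ETS letters: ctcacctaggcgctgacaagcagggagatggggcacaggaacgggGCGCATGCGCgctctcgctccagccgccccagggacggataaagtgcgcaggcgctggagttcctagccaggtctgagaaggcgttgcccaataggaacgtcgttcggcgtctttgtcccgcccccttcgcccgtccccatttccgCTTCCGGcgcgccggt

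Most of these genes were abundant. The authors' FPKM, a level scaled for transcript length and library size, averaged 100 or more over the 16 mice in 57 members, 10 to 100 in 15 and less than 10 in 6, and Cox8c was listed at 0 in every mouse. Between mice the levels were narrow, with a coefficient of variation from 3.04% to 8.60% (median 5.05%) among the 72 members at 10 or more. The most abundant transcript of each complex was Atp5b, the catalytic beta subunit of ATP synthase, at 702.6 ± 26.0 FPKM (SD, n = 16 mice) for complex V, Cox8a at 571.1 ± 25.8 for complex IV, Ndufa4 at 548.3 ± 20.6 for complex I as named, Uqcrh, the hinge protein, at 346.7 ± 18.1 for complex III and Sdha, the flavoprotein, at 165.8 ± 5.03 for complex II. Ndufa4 is counted here under complex I by its name, although its product is known to associate with complex IV. Atp5b was clearly above Cox8a, whose lowest to highest mouse ran from 526.1 to 617.7 FPKM against 661.9 to 742.1 for Atp5b, while the ranges of Cox8a and Ndufa4 (509.3 to 589.9) overlapped. FPKM of short transcripts depend on the length correction of the Cufflinks tools, so the order among short members is less certain than the spread between mice.

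**Figure D1:**
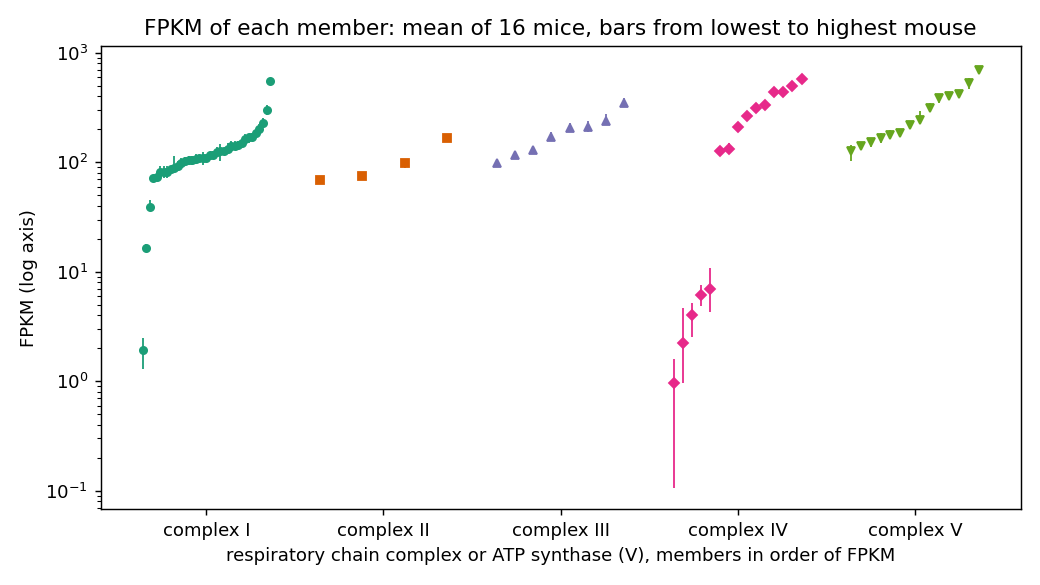
FPKM on a log axis for each member above 0, in order of level within each complex. Points are means of 16 mice and bars run from the lowest to the highest mouse. The low points of complexes I and IV are Ndufa4l2, Cox7b2, Cox8b, Cox6b2, Cox6a2 and Cox7a1, each with a mean below 10 FPKM.

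Tissue-specific paralogs of complex IV subunits were far below the forms known to be widely expressed. Cox6a1 was at 443.1 ± 25.9 FPKM and Cox6a2, known as the form of heart and skeletal muscle, at 6.18 ± 0.79 (SD, n = 16). Cox6b1 was at 436.5 ± 20.1 and Cox6b2, the testis form, at 4.01 ± 0.79. Cox8a stood against Cox8b, another muscle form, at 2.25 ± 0.87. In the Cox7a family, Cox7a2 was at 208.8 ± 9.30 and Cox7a2l at 128.0 ± 5.70, while the muscle form Cox7a1 was at 6.96 ± 1.53. Cox7b was at 132.8 ± 7.13 and Cox7b2 at 0.96 ± 0.41, and Ndufa4l2, known as a hypoxia-induced paralog of Ndufa4, was at 1.92 ± 0.35. The 3 genes for the identical mature c subunit of ATP synthase were all expressed, with Atp5g3 at 417.5 ± 15.4, Atp5g1 at 139.8 ± 6.58 and Atp5g2 at 125.8 ± 9.98. The mouse-by-mouse ranges of Atp5g1 and Atp5g2 overlapped.

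The 2 deposited tables disagreed for Ndufs5, an accessory subunit of complex I, which had 0 counts in every mouse but 103.7 to 146.1 FPKM. It was therefore not tested, and neither was Cox8c, at 0 in both tables. The filter on low counts also removed Cox8b from NE vs WW and Cox7b2 from NE vs NW, which left 77 members tested in the other comparisons and 76 in those. In 9 members the gene overlaps another on the opposite strand, among them Atp5j with Gabpa over 123 bases and Cox6a2 with Itgad over 69. Their counts are less certain, because the sources used here do not give the counting tool or its strand setting.

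Total counts per mouse were 27100352 to 32880979 (median 29448284), and the 79 members took 0.834% to 0.928% of them (median 0.872%). Neuron, oligodendrocyte and astrocyte markers were detected in all mice, and 4 of 5 erythrocyte markers were at 0 in all. Some marker sums were lower in all Water-Ethanol mice than in all WW mice, while NE overlapped WW. The sum of 8 astrocyte markers was 161535 to 174683 normalised counts in WW and 157361 to 169675 in NW, against 154041 to 160425 in Water-Ethanol, below all WW mice, and 153768 to 164418 in NE. The sum of 8 endothelial markers was 9022 to 9378 in WW and 8857 to 9260 in NW, against 8178 to 8876 in Water-Ethanol, again below all WW mice, and 8273 to 9189 in NE. The striated muscle sum was 127 to 134 in Water-Ethanol and 135 to 168 in WW. In the other marker lists Water-Ethanol and WW overlapped. Such sums follow the most abundant genes: Slc1a2, 1 of the 8 astrocyte markers, had the most counts of any gene in WW mice 18, 19 and 20. The part of these markers in the ethanol differences of the members was not tested. Mouse 21 of WW and mouse 10 of NW stood apart in cerebellum markers, with summed normalised counts of 14683 and 19807 against 39784 to 47959 in the other 14 mice, and mouse 10 of NW also had 3.90% of its counts on Rn45s, a ribosomal RNA precursor. Mouse 7 of NW stood apart in striated muscle markers (1111 against 127 to 222 in the other 15). Signs and medians of the comparisons that hold these mice are given with and without them.

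Within a mouse, the members of the 5 complexes mostly deviated together, by small amounts. Each member's log2 normalised count was set against its mean over the 16 mice, and the median of these deviations was taken over the 77 members that were tested. It was -0.01, 0.02, 0.02 and 0.00 in WW mice 18, 19, 20 and 21. In NW it was 0.07, 0.07, 0.01 and 0.04 for mice 7, 8, 10 and 11. In Water-Ethanol it was -0.02, 0.05, -0.09 and -0.03 for mice 13 to 16 in order of number, and in NE it was -0.09, 0.04, -0.02 and -0.03 for mice 2 to 5. NW mouse 8 had 73 of 77 members above their own mean, whereas NE mouse 2 had 4 and Water-Ethanol mouse 15 had 6. All 4 NW mice were above 0, while the other groups held mice on both sides and the ethanol groups spread most. Other genes shorter than 1000 bases, 1001 in all, also deviated most in some of these mice, with medians of 0.10 in NW mouse 7, 0.06 in NW mouse 8, -0.05 in Water-Ethanol mouse 15 and -0.04 in NE mouse 2.

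**Figure D2:**
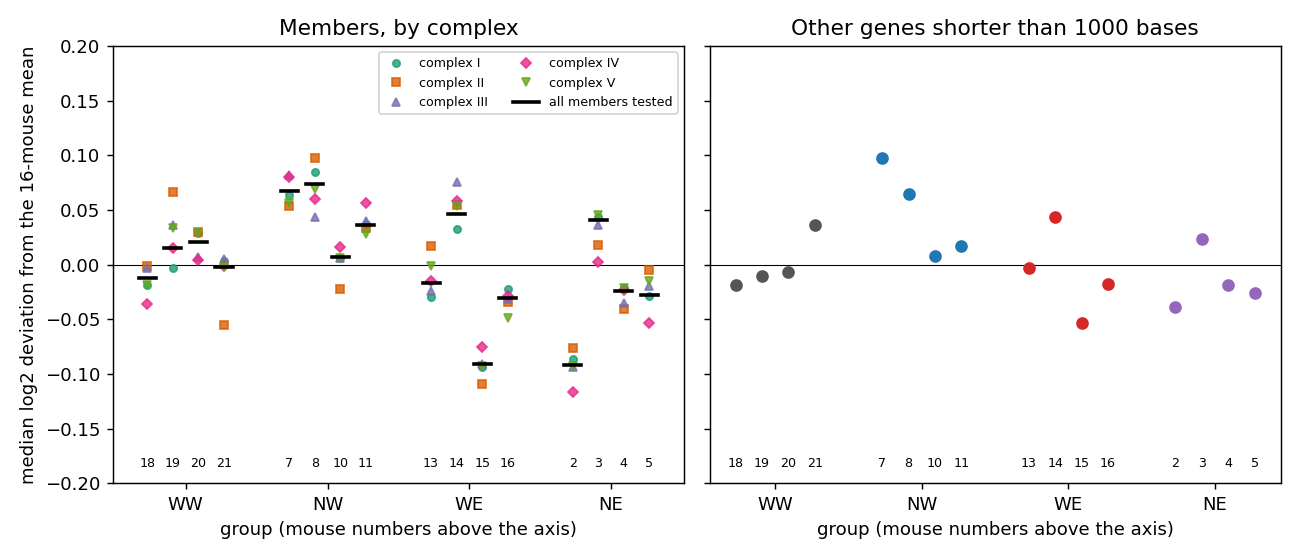
Median log2 deviation from the 16-mouse mean in each mouse, for the members of each complex with the median over all 77 tested members as a bar (left) and for 1001 other genes shorter than 1000 bases (right). The complexes move together in NW mice 7 and 8, Water-Ethanol mouse 15 and NE mouse 2, and the other short genes of those mice lie on the same side of 0.

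Group comparisons used edgeR's quasi-likelihood test on the genes that passed the filter on low counts. Benjamini-Hochberg adjustment ran over all genes tested, and a DEG was called at an adjusted p under 0.05. In a whole brain, fewer cells with many mitochondria and less RNA per cell cannot be told apart. Of the pairwise comparisons none called a member. DESeq2 also called 0 members in each of these, and its share of all genes there is not given here. The comparison of the ethanol-drinking with the other mice called 1.

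**Figure D3:**
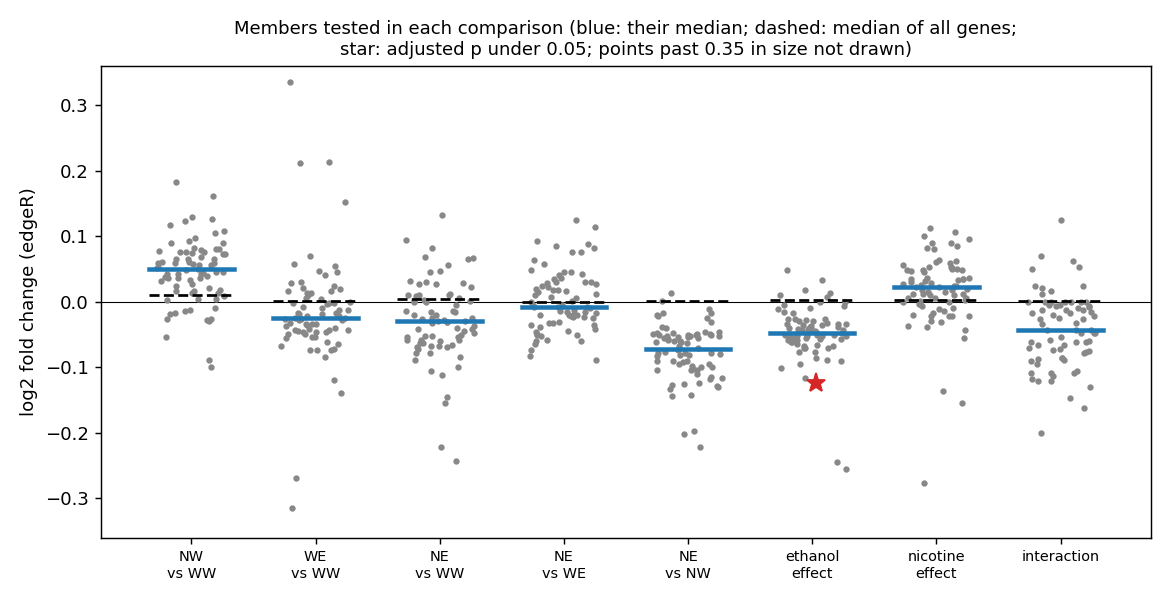
Log2 fold change (edgeR) of each tested member in each comparison. The blue line is the members' median, the dashed line the median of all genes tested, and the star marks an adjusted p under 0.05. 9 points past 0.35 in size are not drawn. The members' median lies above 0 in NW vs WW and furthest below 0 in NE vs NW, and the star is Ndufa9 in the ethanol effect.

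Ndufa9, an accessory subunit of complex I that binds NADPH, was the member that changed with ethanol. It had 2963, 3045, 2963 and 2899 normalised counts in WW mice 18 to 21 and 3019, 3067, 2906 and 2981 in NW mice 7, 8, 10 and 11. It had 2734, 2852, 2621 and 2705 in Water-Ethanol mice 13 to 16 and 2620, 2924, 2695 and 2732 in NE mice 2 to 5. All ethanol-drinking mice but NE mouse 3 were below all mice without ethanol. The gene lies on chromosome 6 (GRCm38, chr6:126821863-126849144, minus strand) with 11 exons. In the fit of all 16 mice, which averages the ethanol difference over mice with and without nicotine, its log2 fold change was -0.12 (SE 0.0276, edgeR adjusted p = 0.0182), a fold of 0.918, with means of 2735 ± 105 (SD, n = 8 mice) against 2980 ± 61.04 (n = 8). It passed in all 9 other settings, with edgeR, limma or DESeq2 adjusted p from 0.00136 to 0.0240, and with each mouse left out, with edgeR adjusted p from 0.00931 to 0.0469. The difference of the ethanol differences between nicotine and water mice was -0.01 (SE 0.0552, edgeR adjusted p = 0.994). The pairwise values were -0.12 (SE 0.0368, edgeR adjusted p = 0.120) in Water-Ethanol vs WW and -0.11 (SE 0.0393, edgeR adjusted p = 0.181) in NE vs WW. In Water-Ethanol vs WW the groups did not overlap (exact two-sided permutation p = 0.0286, the smallest that 4 against 4 mice can give). The same held, in the lower direction, for 870 of all 15323 genes tested there.

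**Figure D4:**
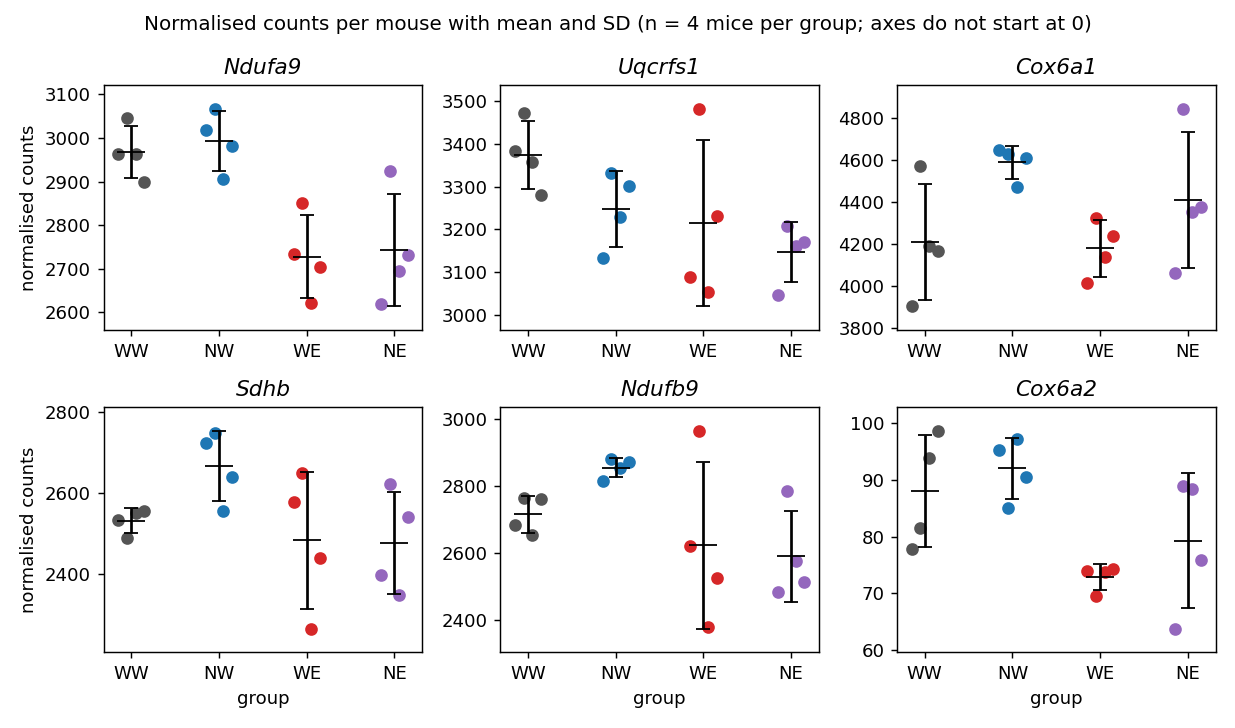
Normalised counts of 6 members in each mouse (points), with the mean and SD of each group of 4 mice (bars). The axes do not start at 0. Ndufa9 lies lower in both ethanol groups, with 1 NE mouse at 2924 within the range of the mice without ethanol.

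Of all 15592 genes tested for the ethanol effect, 4.5% were called and 1.56% were called lower, and 1 of 77 members (Ndufa9) was called lower and 0 higher. At an unadjusted p under 0.05, 9 members were lower and 0 higher, where 10.1% of all genes were lower, so the members' count was close to the background. The 9 were Ndufa9, Ndufb5, Ndufb9, Ndufs8, Cox5a, Cox6a2, Cox6b1, Atp5c1 and Atp5g2. The direction was lopsided: 70 of 77 members had a log2 fold change below 0, with a median of -0.05 against 0.00 over all genes tested. The medians of complexes I to V were -0.05, -0.05, -0.04, -0.04 and -0.05. Without WW mouse 21 and NW mouse 10 the median was -0.06 with 72 of 77 below 0, and without NW mouse 7 it was -0.04 with 68 below 0; Ndufa9 was called in both cases. After Ndufa9 came Atp5c1, the gamma subunit of ATP synthase, at -0.09 (SE 0.0297, edgeR adjusted p = 0.0882), Ndufb5 at -0.08, Cox6a2 at -0.24 and Cox6b1 at -0.09. These members were named after their values were seen. DESeq2 called Atp5c1 lower as well (DESeq2 adjusted p = 0.0451), which gave 2 members lower in a background of 2.8% of genes, and edgeR did so without NE mouse 3 (edgeR adjusted p = 0.0438). Without Water-Ethanol mouse 14, edgeR called Ndufb9 lower (adjusted p = 0.0259) beside Ndufa9.

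In NW vs WW, the comparison of nicotine with water, edgeR called 0 of 77 members in a background of 0% of all 15344 genes, and 65 members had a log2 fold change above 0. Their median was 0.05, or 3.55% higher, against 0.01 over all genes. At an unadjusted p under 0.05, 4 members were higher, namely Cox6a1, Atp5j2, Ndufs7 and Ndufv3, and 0 lower, where 1.95% of all genes were higher. The 4 NW mice were all above the 4 WW mice for 4 members, Ndufs6, Ndufb9, Ndufv3 and Cox6b1, where 1.71% of all genes were. Cox6a1, a structural subunit of complex IV, had 3903, 4573, 4192 and 4165 normalised counts in WW mice 18 to 21 and 4645, 4629, 4473 and 4609 in NW mice 7, 8, 10 and 11. WW mouse 19 reached into the range of NW. The log2 fold change was 0.13 (SE 0.0498, edgeR adjusted p = 0.524). The smallest p of complex I was that of Ndufs7, a subunit that carries an iron-sulfur cluster, at 0.12 (SE 0.0517, edgeR adjusted p = 0.551), that of complex V of Atp5j2 at 0.12 (SE 0.0485), that of complex III of Uqcr11 at 0.10 (SE 0.0553) and that of complex II of Sdhb, the iron-sulfur subunit, at 0.08 (SE 0.0400, edgeR adjusted p = 0.644). Sdhb had 2533, 2489, 2550 and 2557 normalised counts in WW and 2723, 2748, 2556 and 2640 in NW in the same order of mice, so that NW mouse 10 lay within WW. Without WW mouse 21 and NW mouse 10, the mice with low cerebellum markers, the median was 0.07, with 68 of 77 members above 0 and 0 called. Without NW mouse 7, the mouse with raised muscle markers, it was 0.04, with 65 above 0 and 0 called.

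NE vs NW, the comparison of ethanol with water in nicotine mice, had the most lopsided signs. It holds the same 4 NW mice as NW vs WW, with the sign reversed, so the shifts of these comparisons are not independent. In NE vs NW, 74 of 76 members had a log2 fold change below 0, with a median of -0.07 against 0.00 over all 15361 genes tested. The medians of complexes I to V were -0.08, -0.08, -0.06, -0.08 and -0.06. No member was called by edgeR (background 0%). At an unadjusted p under 0.05, 12 members were lower and 0 higher, against 4.94% of all genes lower, and 7 members had all 4 NE mice below all 4 NW mice, namely Ndufa2, Ndufa3, Ndufb9, Sdhc, Cox6b1, Cox7b and Atp5h, against 3.03% of all genes. These genes were named after their values were seen. Ndufb9, an accessory subunit of complex I, had 2815, 2881, 2853 and 2872 normalised counts in NW and 2485, 2786, 2577 and 2512 in NE. Its log2 fold change was -0.14 (SE 0.0445, edgeR adjusted p = 0.268; exact two-sided permutation p = 0.0286). Cox6b1 had 4077, 4097, 4074 and 4127 in NW and 3554, 3936, 3710 and 3844 in NE, with a log2 fold change of -0.13 (SE 0.0423, edgeR adjusted p = 0.296). In both genes the NW mice lay close together and the NE mice were spread. Without NW mouse 10, all 77 members that could be tested were below 0, with a median of -0.08 and 0 called. Without NW mouse 7 the median was -0.07 with 6 of 76 above 0, and without NE mouse 2, the mouse with the lowest members, it was -0.05 with 5 of 77 above 0. The ethanol difference in nicotine mice and that in water mice share no mice. The interaction tests their difference in the fit of all 16. It called 0 of 77 members with edgeR (edgeR background 0%) and 0 with DESeq2, whose share of all genes is not given here. Its median was -0.04, with 66 of 77 members below 0, and 2 members, Cox8b and Ndufs6, were lower at an unadjusted p under 0.05, where 2.01% of all genes were. The interaction's median varied with the mice left out and with an offset for length. It was -0.07 with 6 members above 0 without NW mouse 10, and -0.06 with 5 above 0 without Water-Ethanol mouse 15. It was -0.03 with 28 members above 0 without NE mouse 2, -0.02 with 26 above 0 without Water-Ethanol mouse 14, -0.07 with 9 above 0 without WW mouse 21 and NW mouse 10, and -0.04 with 15 above 0 without NW mouse 7. With the offset for transcript length described further on, it was 0.00 with 36 of 77 above 0.

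Against WW, the members of the other groups lay near 0. In Water-Ethanol vs WW edgeR called 0 of 77 members (background 0.457%), 55 were below 0 with a median of -0.02, and 2, Ndufa9 and Cox6a2, were lower at an unadjusted p under 0.05 where 9.05% of all genes were. Its median ranged from -0.05 to 0.00 when single mice were left out, with 11 members above 0 without Water-Ethanol mouse 14 and 34 without mouse 15. Without WW mouse 21 the median was -0.01, with 54 of 77 members below 0. The smallest p-values of complexes V, III and II were those of Atp5c1 at -0.07 (SE 0.0371, edgeR adjusted p = 0.295), Uqcrfs1 at -0.07 and Sdha at -0.05. In NE vs WW edgeR called 0 of 76 (background 0.313%), 52 were below 0 with a median of -0.03, and 3, Uqcrfs1, Ndufa9 and Cox7c, were lower at an unadjusted p under 0.05 against 8.23% of all genes. Its median ranged from -0.05 to -0.01 when single mice were left out. Without WW mouse 21 the median was -0.03, with 49 of 76 members below 0. Uqcrfs1, the Rieske iron-sulfur protein of complex III, had 3383, 3473, 3359 and 3281 normalised counts in WW and 3046, 3209, 3162 and 3171 in NE. All NE mice were below all WW mice (log2 fold change -0.10, SE 0.0339, edgeR adjusted p = 0.173). Of the 76 members tested, 1 was separated in this way, where 844 of all 15313 genes were. Cox7c was at -0.11 (SE 0.0425), Atp5l at -0.08 (SE 0.0365) and Sdha at -0.07 (SE 0.0358), none of which passed. The counts of members in both comparisons were below the share of all genes. NE vs Water-Ethanol called 0 of 77 members with edgeR (background 0%), with a median of -0.01, 42 members below 0 and 2 at an unadjusted p under 0.05, Atp5d higher and Cox8b lower, where 5.8% of all genes were. Its median ranged from -0.03 to 0.02 when single mice were left out. For the nicotine effect over all 16 mice, edgeR called 0 of 77 (edgeR background 0%). DESeq2 called 0 as well, and its share of all genes is not given here. The median was 0.02, 55 members were above 0, and 8 were higher at an unadjusted p under 0.05 where 3.56% of all genes were. The median was 0.02 with 52 above 0 without NW mouse 7, 0.03 with 59 above 0 without WW mouse 21 and NW mouse 10, and 0.00 with 40 above 0 with the length offset. Those with the smallest p, named after their values were seen, were Ndufs7 at 0.11 (SE 0.0338) and Cox8a at 0.08 (SE 0.0281).

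The shift of the members moved with transcript length. The members had a median length of 651 bases against 2208 over all genes, and 54 of the 79 were shorter than 1000 bases (68.4%, against 21.2% of all genes). In NE vs NW the median log2 fold change of genes outside the list was -0.09 below 500 bases, -0.06 at 750 to 1000, -0.03 at 1500 to 2000 and 0.05 at 5000 and above. The members of the first class were at -0.09 and those of the second, from 500 to 750 bases, at -0.08 against -0.07 for the other genes. From 1000 to 1500 bases the 12 members were further from 0 than the other genes, at -0.08 against -0.05. In NW vs WW the other genes ran the opposite way, from 0.08 below 500 bases to -0.03 at 5000 and above. Both comparisons hold the same NW mice with opposite sign, so these trends are not separate observations. Over all 940 other genes shorter than 1000 bases the NW vs WW median was 0.05, and over 948 in NE vs NW it was -0.07, equal at 2 decimals to the medians of the members. In the ethanol effect the other short genes, 1001 in all, were at -0.04 and the members at -0.05, and in the class of 1000 to 1500 bases, which holds Ndufa9, the other genes were at -0.03 and the 12 members at -0.06. With an offset for each mouse's trend on length, the median of the members was 0.01 in NW vs WW (45 of 77 above 0) and -0.02 in NE vs NW (48 of 76 below 0), and that of the ethanol effect was -0.01 (55 of 77 below 0). Ndufa9 passed with this offset too, at a log2 fold change of -0.10 in the ethanol effect. An offset for GC content left the medians at 0.04, -0.08 and -0.05. Whether the length trend arose in the libraries or in the brains was not tested.

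**Figure D5:**
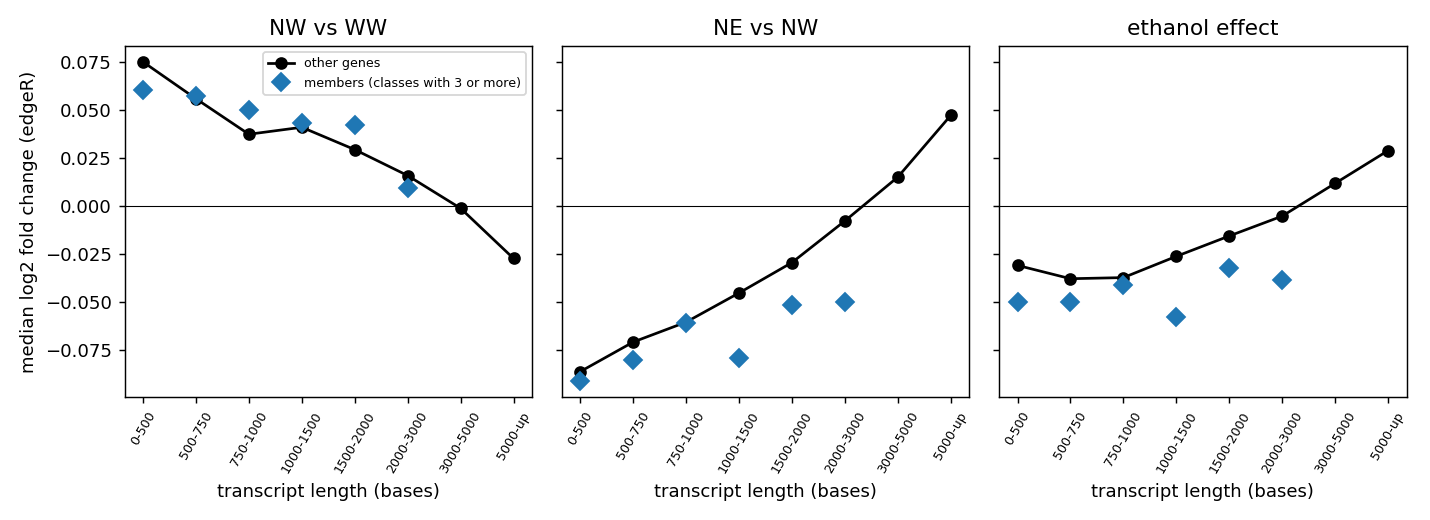
Median log2 fold change (edgeR) by transcript length class in 3 comparisons, for genes outside the list (black) and for members (blue) in classes with 3 or more members. In NW vs WW the line falls from 0.08 to -0.03 and in NE vs NW it rises from -0.09 to 0.05, and the members shorter than 1000 bases lie near it, while members of 1000 to 3000 bases lie below it in NE vs NW and the ethanol effect.

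The rare paralogs gave the largest folds on the fewest reads. Cox8b had 9.73, 11.5, 8.80 and 9.44 normalised counts in WW and 21.7, 11.5, 15.3 and 9.95 in NW, against 14.98, 8.94, 13.3 and 12.7 in Water-Ethanol and 4.56, 6.59, 6.95 and 10.1 in NE. The highest value belonged to NW mouse 7, the mouse with raised striated muscle markers, which also had the highest Cox7a1 (51.9 against 22.0 to 43.9 in the other mice). The part of these markers in the Cox8b difference was not tested. The log2 fold change of Cox8b in NE vs NW was -1.05 (SE 0.353, edgeR adjusted p = 0.298) and without NW mouse 7 it was -0.78. Cox7b2 was lowest in WW mouse 21 (2.10), followed by NE mouse 2 (3.65) and NW mouse 10 (5.46), against 6.15 to 15.98 in the others. The first and the last of these are the mice with low cerebellum markers, whose part in this was not tested. Cox6a2 had 77.8, 81.5, 93.8 and 98.6 in WW and 73.9, 69.5, 73.8 and 74.4 in Water-Ethanol, without overlap, at -0.27 (SE 0.118, edgeR adjusted p = 0.239). Ndufa4l2 was also lower in all Water-Ethanol mice (31.9 to 45.09) than in all WW mice (45.09 to 50.8), although the nearest mice were equal to 2 decimals, with a log2 fold change of -0.31 (SE 0.157, edgeR adjusted p = 0.292). Cox6a2, Ndufa4l2 and Ndufa9 were the 3 of 77 members separated lower in this comparison, where 870 of all 15323 genes were.

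Other genes of the pathway, and lists of genes outside it, showed the same signs in part. Cox4i1, the main isoform of complex IV subunit 4, which the symbol rule leaves out, was at 0.06 (SE 0.0440) in NW vs WW, -0.07 (SE 0.0448) in NE vs NW and -0.03 (SE 0.0305) in the ethanol effect, and was not called. In NE vs NW, 6 of 7 subunits outside the symbol rule were below 0, as were 31 of 42 tested assembly factors, 11 of 13 genes of electron carriers and ATP export, 14 of 16 of the TCA cycle and pyruvate dehydrogenase, 15 of 15 of glycolysis, 67 of 77 mitochondrial ribosomal proteins and 72 of 73 cytosolic ribosomal proteins, with 0 called in each list. The cytosolic ribosomal proteins, which are short transcripts with no role in respiration, had a median of -0.10, further from 0 than the members. In NW vs WW, 8230 of all 15344 genes were above 0. So were 4 of 7 subunits outside the symbol rule, 22 of 42 assembly factors and 7 of 13 genes of electron carriers and ATP export. The TCA cycle list had 10 of 16 above 0, glycolysis 14 of 15, and the mitochondrial and cytosolic ribosomal proteins 58 of 77 and 72 of 75. In the ethanol effect edgeR called 1.56% of all 15592 genes lower. Of 77 mitochondrial ribosomal protein genes it called 5 lower and 0 higher, namely Mrpl57 at -0.26 (SE 0.0451), Mrpl54, Mrpl47, Mrpl2 and Mrpl39. It also called Coa3, an assembly factor of complex IV, at -0.12 (SE 0.0343), Coq3 of ubiquinone synthesis at -0.18 (SE 0.0503) and Tfb1m, the mitochondrial rRNA methyltransferase, at -0.29 (SE 0.0807), each lower. These were named after their values were seen. With the length offset the calls of Mrpl57, Mrpl54 and Mrpl39 held and those of Mrpl47, Mrpl2, Coa3, Coq3 and Tfb1m did not (edgeR adjusted p from 0.0575 for Coq3 to 0.0954 for Coa3). Mrpl57 was called with each of the 16 mice left out, and the others lost the call in 8 to 13 of these. In the other comparisons the reported edgeR fits called 0 genes of these lists, where edgeR called 0% to 0.457% of all genes. DESeq2 called 1 or 2 genes of some of the lists. These DESeq2 counts are not set against its share of all genes, so they cannot be placed above or below it.

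Of 13 regulators of mitochondrial biogenesis, edgeR called 0 in NW vs WW and had 3 lower and 1 higher at an unadjusted p under 0.05, where 6.49% of all genes were lower and 1.95% higher. In 2 of them all NW mice were below all WW mice, as in 4.25% of all genes. Ppargc1a, the coactivator of the program, had 2588, 2502, 2615 and 2346 normalised counts in WW and 1969, 2232, 2229 and 2286 in NW, without overlap. The log2 fold change was -0.20 (SE 0.0550, edgeR adjusted p = 0.298), and the fit of all 16 mice gave an adjusted p of 0.0470. Gabpa, the DNA-binding subunit of GABP, had 1138, 1157, 1134 and 1130 in WW and 905, 1038, 963 and 1011 in NW, again without overlap, at -0.22 (SE 0.0518, edgeR adjusted p = 0.237), while DESeq2 gave an adjusted p of 0.0432. With the GC offset both genes were at -0.12 (edgeR adjusted p = 0.898 for Ppargc1a and 0.882 for Gabpa). Without NW mouse 7, the lowest mouse in both, Ppargc1a was at -0.16 and Gabpa at -0.18. The counts of Gabpa are less certain, because it overlaps Atp5j over 123 bases on the opposite strand and the strand setting is not known. The members had a median above 0 in the same comparison, that is, on the opposite side of 0. Tfam, which packages mitochondrial DNA, was at -0.08 (SE 0.0644) and Nrf1 ranged from 461 to 548 in WW and from 495 to 537 in NW. In the ethanol groups Ppargc1a had 2313 to 2418 in Water-Ethanol and 2293 to 2447 in NE, all above the NW mice and overlapping WW.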

How the data were processed

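RNA-seq of 16 whole brains was analysed in the groups of the labels. Per the methods and the submitters' processing notes, the authors trimmed 150-base single reads with Trimmomatic, aligned them to GRCm38/mm10 with TopHat2 and made FPKM with the Cufflinks tools. The deposited count table holds whole, unnormalised read counts per gene, and the deposited FPKM table values scaled for length and library size. The counting tool and its strand setting are not given in the sources used here, and the kit named in the labels is unstranded while that of the paper is stranded. The deposited count table also lists other values per gene, of which the exon length was used.

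Tests were edgeR 4.0.16 quasi-likelihood fits (R 4.3.3) with TMM factors and the default filter on low counts. Pairwise comparisons used the 8 mice compared, and the ethanol and nicotine effects and interaction all 16. Standard errors are the absolute log2 fold change over the square root of F. Normalised counts are counts over the TMM effective library size, scaled to its mean. Single genes were also compared by exact permutation of the mice, for which 4 against 4 allows a smallest two-sided p of 0.0286. Alternatives were RLE factors, DESeq2 1.42.0, other filters, limma 3.58.1 on log2(FPKM + 1) and log2(FPKM + 0.1), all 16 mice, length and GC offsets (loess, span 0.3) and leaving out each mouse. Leaving out both mice with low cerebellum markers was chosen after seeing the data. The fits were also run on simulated counts, with planted changes larger than those of most members. That run therefore does not show how well shifts of the members' size are found.

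The genes named are members with an adjusted p under 0.05, the member with the smallest p of each complex in each comparison with WW, the most abundant member of each complex, the paralog families, the members not tested, 4 regulators and Cox4i1; all others were named after their values were seen. Members and lists were chosen with earlier results of these data known. Mice are the replicates; counts carry counting error besides the spread between mice.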

Additional observations from a re-analysis of the deposited data

Results flagged for a closer look

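Among 29 members checked, 1 group of 4 mice held a mouse past Dixon's limit. Cox6a2 had 69.5 normalised counts in Water-Ethanol mouse 14 and 73.8, 73.9 and 74.4 in the other mice of that group, a gap of 0.880 of the group's whole range, above Dixon's 95% limit. The range itself was narrow: the SD of this group was 2.27, against 9.87 in WW, 5.43 in NW and 11.9 in NE. In all, 120 groups were checked and 1 (0.833%) was past the limit, where chance alone gives about 1 in 20.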

How the results depend on the processing

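Changes of the members' medians were set against the spread between mice (0.0427, log2). The median of NE vs NW, at -0.0725, was clearly larger in size than this spread. Those of NW vs WW (0.0503), the ethanol effect (-0.0481) and the interaction (-0.0435) were slightly larger. The other medians were smaller than the spread. A change within it is therefore no sign of stability. The length offset took the median of the ethanol effect from -0.0481 to -0.0113 and that of the interaction from -0.0435 to -0.00240, both within that spread. The counts of called members stayed as reported except where named here. The offset for length moved the members' median in NW vs WW to 0.00671 and in NE vs NW to -0.0192. DESeq2 called 2 members lower in the ethanol effect. Leaving out each mouse gave 1 to 2 members called in the ethanol effect. The cause of these differences was not tested. Values near 0 changed sign: Ndufa9 was at -0.0176 in NW vs WW and 0.0245 in the interaction with the length offset, and ranged from -0.0273 to 0.0258 in NE vs Water-Ethanol and from -0.0394 to 0.0140 in the interaction when single mice were left out. Of 530 values of named genes under these settings, 516 kept their direction and their side of the threshold. The median of NE vs Water-Ethanol changed sign with single mice left out (-0.03 to 0.02). No paired analysis was possible because no replicate number occurs in more than 1 group. The standard errors of the abundant members named in the pairwise comparisons ran from 0.0339 to 0.0553 on the log2 scale, about the size of the members' medians, so shifts of that size were not resolved for single members.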
